A study of Drosophila melanogaster with 4 samples.

Results

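Mst77F, Mst35Ba and Mst35Bb encode small basic proteins of the sperm nucleus, and 15 of the 40180 transcripts in a long-read catalogue of Drosophila melanogaster testes belonged to these 3 genes. A transcript was counted when at least 1 base of an exon lay, on the gene's strand, inside the annotated span of the gene on Release 6 of the genome. Mst77F had 7 such transcripts, Mst35Ba 5 and Mst35Bb 4, and 1 transcript was shared by the Mst35B pair. The RefSeq gene table lists Mst35Ba as ProtA (CG4479) and Mst35Bb as ProtB (CG4478), while Mst77F (CG3354) keeps its name. The table gives no strand, which was therefore taken from the transcripts themselves, and all 3 genes lay on the minus strand.

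During the last phase of sperm development, histones are removed from the DNA of the elongating spermatid and replaced by small proteins rich in basic residues, which pack the sperm nucleus tightly. Mst35Ba and Mst35Bb are the protamine-like proteins of the fly and are made from a tandem pair of related genes. Mst77F resembles a linker histone, joins them in the sperm nucleus and is needed for male fertility. Genes of this kind are transcribed in spermatocytes, and their messages are stored and translated only in later spermatids.

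The RNA came from testes of 2 KmgKD samples (genotype bamGAL4/ KmgRNAi) and 2 control samples (genotype bamGAL4), so the driver was present in every sample. The bam promoter drives GAL4 in spermatogonia, and the RNAi construct targets kmg, which encodes a zinc-finger protein of spermatocytes. Each sample pooled 150 pairs of testes from males 0 to 2 days old, whose parents were crossed for 3 days at 25 °C before eggs and larvae were moved to 29 °C. Polyadenylated RNA was read as full-length cDNA with PacBio Iso-Seq in runs of 24 hours. The catalogue merges all 4 samples, and 0 of its lines name a sample or a condition. It holds positions of transcripts, exons and predicted coding sequence (CDS) and no read number. Depth and replicate spread are therefore unknown, KmgKD and control testes could not be compared, and every value below describes them pooled. Transcripts of 1 gene are not replicates.

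The catalogue held transcripts of all 17 marker genes of spermatocytes and spermatids, of all 4 of spermatogonia, and of all 5 of cyst and hub cells. It also held transcripts of all 3 muscle markers and of 2 of 3 markers of the seminal vesicle and accessory gland, with SP (the sex peptide gene) absent. A transcript counted for a marker when at least 50% of its exon bases lay in the gene span on either strand. Presence in the catalogue says nothing of the level. The share of all annotated genes present by this rule is not given here, so the marker counts are no measure of cell content.

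Mst77F lay on 3L from 20816901 to 20818027, a span of 1127 bp with 1 RefSeq transcript. Of its 7 transcripts, 5 began exactly at the annotated 5' end, position 20818027, and 5 ended exactly at the annotated 3' end, position 20816901. Transcripts 1, 4 and 7 (numbers as in the catalogue) did both, and so ran over the whole annotated span. Across the catalogue, 1.31% of 36513 transcripts matched to a protein-coding gene agreed exactly with the annotated 5' end, and 12.3% with the annotated 3' end. These annotated ends are the outermost of a gene span. In a gene with several annotated starts, a transcript from an inner one could not match, while Mst77F has 1 RefSeq transcript. The catalogue shares are therefore not a like comparison for Mst77F. For the Mst35B pair, 0 of 8 transcripts began or ended exactly at an annotated end. Starts within 100 bp of the annotated 5' end were found in 3 of 5 Mst35Ba and 2 of 4 Mst35Bb transcripts.

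The spliced form of Mst77F joined an exon of 431 bp to an exon of 634 bp in transcript 4, the full-length form of 1065 nt. The intron between them, at 20817535 to 20817596, was 62 bp long and lay within the CDS. It was removed in 5 of the 7 transcripts. The CDS of transcript 4 began at 20817878 and ended at 20817169, for 648 bp or 216 codons, after a 5' untranslated region (UTR) of 149 nt and before a 3' UTR of 268 nt. Transcripts 1, 3, 4 and 8 carried this same CDS. A CDS of 648 bp stood low among the 36534 coding transcripts of the catalogue, of which 17.0% had a CDS no longer than this and whose median was 1296 bp.

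**Figure D1:**
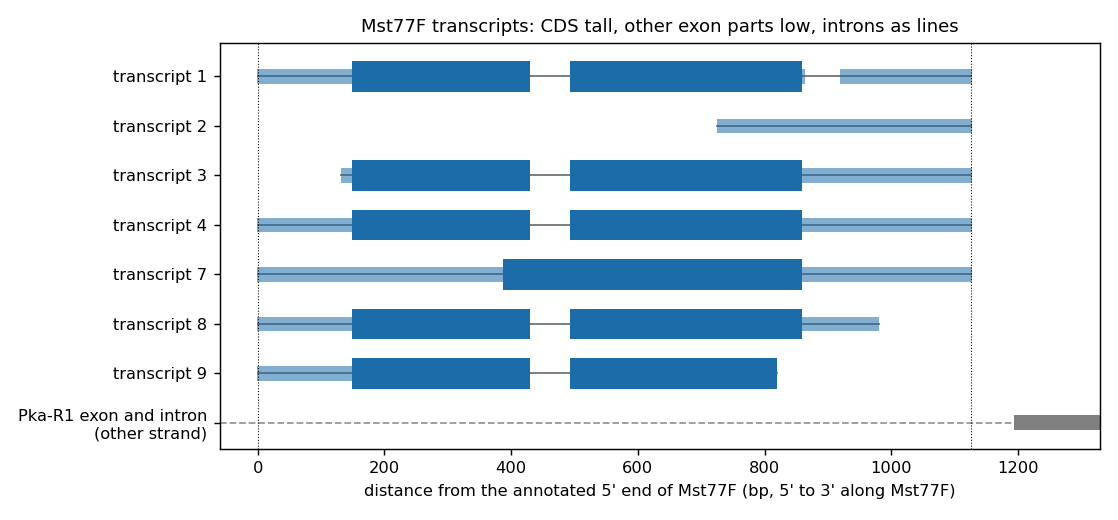
The 7 Mst77F transcripts drawn 5' to 3' against the distance from the annotated 5' end in bp, with CDS as tall bars, other exon parts as low bars, introns as lines and the ends of the annotated span as dotted lines. Of the 7, 5 start at the dotted line on the left and 5 end at the dotted line on the right, and the grey exon of Pka-R1, on the other strand, begins 67 bp past the 3' end.

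The other 3 Mst77F transcripts did not hold the full CDS, and each differed in another way. Transcript 7 kept the intron and was 1127 nt long. Its predicted CDS began at 20817639, which is 239 bp past the usual start, and passed through 43 bp of the first exon, the 62 bp of the intron and 366 bp after it. It therefore had 157 codons and the same last base as the full CDS. The offset of 239 bp is not a multiple of 3, so the 43 bp were read in another frame than in the full CDS. Only the 122 codons after the intron were shared. Transcript 9 ended at 20817208, inside the coding part of the last exon and 307 bp short of the annotated 3' end. Its CDS of 609 bp (203 codons) ran to the last base of the transcript and lacked the final 39 bp. Such open-ended CDS were found in 401 of the 36534 coding transcripts. Transcript 2 was an unspliced piece of 402 nt that began at 20817302, 576 bp past the start of the CDS, and had no CDS in the file.

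The second inner start besides that of transcript 2 was that of transcript 3, at 20817895. It lay 132 bp inside the span and left a 5' UTR of 17 nt before the full CDS. Transcript 8 ended at 20817047, 146 bp short of the annotated 3' end, with a 3' UTR of 122 nt. With ends within 20 bp of each other put into 1 group, Mst77F had 3 groups of starts and 3 groups of 3' ends. The gene had no transcript that began upstream of, or ended past, its annotated span.

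Transcript 1 of Mst77F carried a second intron, at 20817108 to 20817162, beyond the end of the CDS. This intron measured 55 bp and began after only 6 exon bases past the last CDS base. Removing it shortened the 3' UTR to 213 nt, against 268 nt in transcript 4, and left the protein unchanged. Introns of 55 bp or less made up 7.42% of the 44300 distinct introns of the catalogue, whose median length was 83 bp. Whether the file counts the stop codon in the CDS is not given, so distances from the CDS are measured from its last listed base.

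Mst77F sat inside another gene. All of its span lay within 1 intron of 12 transcripts on the plus strand, and none of their exon bases (0 bp) fell in the span. Of these 12, 11 had the same intron of Pka-R1, at 20816834 to 20832845. Pka-R1 encodes a regulatory subunit of the cAMP-dependent protein kinase. That intron was 16012 bp long, longer than or equal to 97.7% of catalogue introns, and the span of Mst77F took up 7.04% of it. Mst77F lay at its near edge: 67 bp separated the 3' end of Mst77F from the exon of Pka-R1 on one side, and 14818 bp separated its 5' end from the next exon on the other. Being wholly inside 1 intron of an opposite-strand transcript was a property of 8.45% of the 9100 loci.

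The host transcripts began between 20810484 and 20816455 and ended between 20834165 and 20836034. The 11 with the shared intron all left Pka-R1 exon sequence at 20816833, wherever they began. The twelfth, transcript 17 of the host locus, began 815 bp inside HIPP1, the gene upstream of Pka-R1 on the same strand, and had exons in both HIPP1 and Pka-R1. Its intron over Mst77F ran from 20812468 to 20832845 and was 20378 bp long. The host locus as numbered in the catalogue held 27 transcripts of HIPP1 and Pka-R1 together. Downstream of Mst77F on its own strand, the nearest catalogue transcript began 864 bp past the 3' end and belonged to CG3618.

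The Mst35B pair lay on 2L, with Mst35Ba from 14879050 to 14881652 (2603 bp, 2 RefSeq transcripts) and Mst35Bb from 14882101 to 14883721 (1621 bp, 1 RefSeq transcript). On the minus strand Mst35Bb therefore comes first and Mst35Ba follows 448 bp downstream. The catalogue gave both genes to a single locus of 8 transcripts, of which 4 belonged to Mst35Ba alone, 3 to Mst35Bb alone and 1 to both. Without the joining transcript, 474 bp without any catalogue exon separated transcripts of the genes. With 8 and 7 transcripts, the Mst35B and Mst77F loci had at least as many as 86.4% and 83.4% of all loci, whose median was 3. No transcript on the other strand (0) overlapped either span of the pair.

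The standard form of each protamine gene had 3 exons. In Mst35Ba this was transcript 5, of 646 nt, and in Mst35Bb transcript 11, of 661 nt. Transcript 5 was the only Mst35Ba transcript with 3 exons, while transcripts 1 and 3 had 4. The middle exon measured 402 bp in both genes, the intron after it 49 bp in both, and the CDS began after 21 bases of the middle exon in both, leaving 381 bp of CDS there. The CDS of Mst35Ba ran from 14879618 to 14879129 and totalled 441 bp (147 codons), against 435 bp (145 codons) from 14882687 to 14882204 in Mst35Bb. The 6 bp between them came from the last exon, which held 60 bp of CDS in Mst35Ba and 54 bp in Mst35Bb. An intron of 49 bp was among the shortest of the catalogue, where 0.786% of introns were of this length or less.

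The splice sites around the coding exons were evenly spaced between the genes. The middle exon's acceptor and donor, the first CDS base and the last exon's acceptor were all exactly 3069 bp apart between Mst35Bb and Mst35Ba. The last CDS bases were 3075 bp apart and the 3' ends of the standard forms 3060 bp apart. Outside this stretch the genes differed most in the first intron, which was 1871 bp long in Mst35Ba and 893 bp in Mst35Bb, so that the first donors were 2091 bp apart. The first exons measured 120 bp in Mst35Ba transcript 5 and 126 bp in Mst35Bb transcript 11. The 3' UTRs of these 2 transcripts were 64 nt in Mst35Ba and 79 nt in Mst35Bb, both far below the catalogue median of 222 nt. In Mst35Ba transcripts 1 and 3 the 3' UTR was longer, at 1097 and 694 nt.

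**Figure D2:**
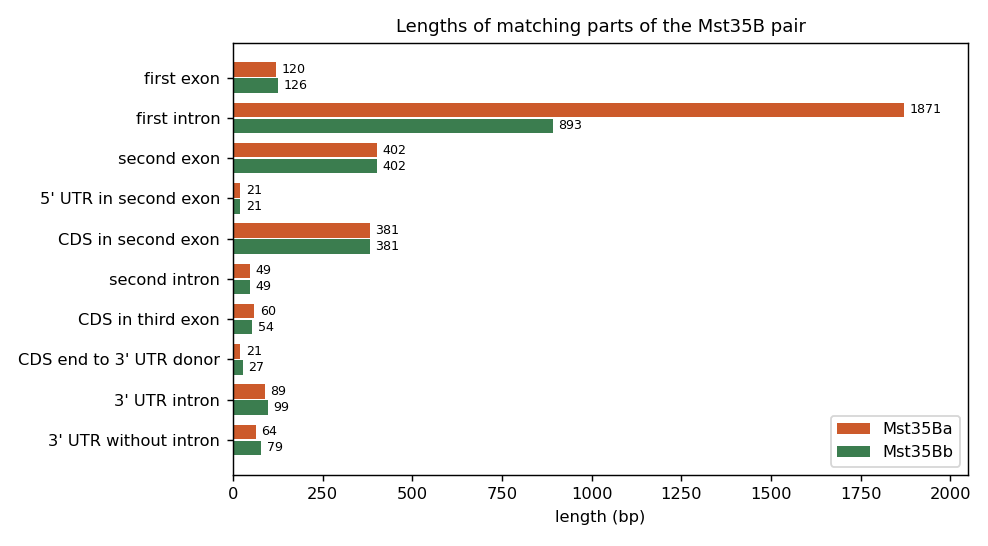
Lengths in bp of matching parts of Mst35Ba (upper bar of each pair) and Mst35Bb (lower bar), taken from transcripts 5 and 11, and for the intron past the CDS from transcripts 1 and 7. The middle exon (402 bp) and the second intron (49 bp) are equal, and the first intron is 1871 bp in Mst35Ba and 893 bp in Mst35Bb.

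The spliced transcripts of Mst35Ba alone, 3 in all, began at 14881630, 14881637 and 14881650, a range of 20 bp that lay 2 to 22 bp inside the annotated 5' end. All 3 carried the full CDS, after a 5' UTR of 141, 148 and 161 nt. The remaining Mst35Ba transcript, number 9, was unspliced and began at 14880949, which is 562 bp into the first intron. It kept the 49 bp intron as well. Its CDS opened at the usual base, but read 24 bp into the kept intron and ended at 14879214. The result was 405 bp (135 codons), 36 bp shorter than the full CDS, with a 5' UTR of 1331 nt.

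Mst35Bb varied at the 5' end and not in its CDS, and at the 3' end only through the joining transcript 7, described below. The 4 transcripts of Mst35Bb all had the CDS of 435 bp and the 49 bp intron. Transcripts 7 and 11 both began at 14883727, 6 bp outside the annotated 5' end. Transcript 15 began at 14884670, 949 bp upstream of that end, and ran through the annotated start into the usual first donor, so that its first exon was 1069 bp long and its 5' UTR 1090 nt. Transcript 10 began at 14883496 with a first exon of 451 bp that lay wholly inside the first intron of the others, 105 bp past their first exon. This exon was joined by an intron of 337 bp to the common middle exon, which gave a 5' UTR of 472 nt in place of the 147 nt of transcript 11. The 3 transcripts of Mst35Bb alone all ended at 14882125, 24 bp short of the annotated 3' end.

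At the 3' side Mst35Ba was the more varied gene. Transcripts 5 and 9, and the joining transcript 7, ended at 14879065, 15 bp short of the annotated end. Transcripts 1 and 3 instead passed that end by 1107 and 704 bp. They did so through an added intron of 89 bp at 14879019 to 14879107, which was followed by a last exon of 1076 bp in transcript 1 and 673 bp in transcript 3. The 3' UTR was thereby 1097 nt in transcript 1 and 694 nt in transcript 3, against 64 nt in transcript 5, with the protein unchanged. The nearest annotated neighbour on that side was the non-coding gene lncRNA:CR45727, 806 bp beyond the longest Mst35Ba transcript, and the protein-coding CG15278 lay 1609 bp beyond it. On the other side lncRNA:CR45302 began 434 bp from the start of Mst35Bb transcript 15. Neither of these non-coding genes was overlapped by a catalogue exon (0 transcripts each).

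**Figure D3:**
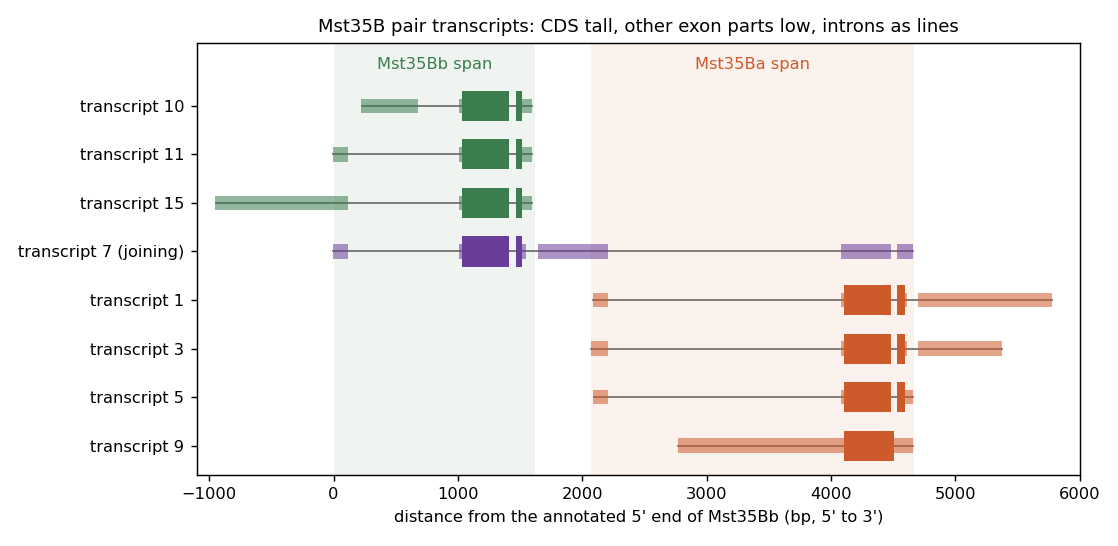
The 8 transcripts of the Mst35B pair drawn 5' to 3' against the distance from the annotated 5' end of Mst35Bb in bp, with CDS as tall bars, other exon parts as low bars, introns as lines and the annotated spans shaded. Transcript 7 (purple) begins with Mst35Bb and ends with Mst35Ba, transcripts 10 and 15 differ in their first exon, and transcripts 1 and 3 run past the Mst35Ba span.

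Transcript 7 joined the pair. It had 6 exons and 1702 nt, began at the Mst35Bb start and ended at the Mst35Ba 3' end. Of its 5 introns, 2 were those of Mst35Bb transcripts and 2 those of Mst35Ba transcripts. The fifth, at 14882078 to 14882176, measured 99 bp and lay across the annotated 3' end of Mst35Bb, at 14882101. Its donor cut the last Mst35Bb exon to 81 bp, 27 bases past the CDS and before the usual 3' end of that gene. Its acceptor opened an exon of 567 bp at 14881511 to 14882077, which read 425 of the 448 bp between the genes and went on into the whole first exon of Mst35Ba.

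The predicted CDS of transcript 7 was that of Mst35Bb alone, 435 bp, with 0 bp of CDS in the Mst35Ba span. All 441 bp of the Mst35Ba CDS nevertheless lay in its exons, spliced at the same 49 bp intron, so both reading frames were present in 1 molecule model. From the end of the Mst35Bb CDS to the start of the Mst35Ba CDS lay 615 nt of exon. The 3' UTR of transcript 7, counted from the Mst35Bb CDS, was 1120 nt long and was crossed by 3 introns, the last of them 996 nt past the CDS.

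Joining of neighbours was frequent in the catalogue. Of 1416 adjacent pairs of protein-coding genes on 1 strand that lay within 1000 bp of each other and both had transcripts, 365 (25.8%) shared a transcript with exons in both. With at least 50 exon bp required in each gene the share was 24.6%, and transcript 7 met that requirement too. The joining of the Mst35B pair is therefore not particular to it. The genes are related copies, and whether reads were assigned to the right copy in transcript 7 was not tested, because the catalogue holds no reads.

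All 3 genes had a transcript with an intron shortly past the CDS. The distance was 6 nt in Mst77F transcript 1, 21 nt in Mst35Ba transcripts 1 and 3, and 27 nt in the joining transcript 7, where it follows the Mst35Bb CDS. In the pair, the donors of these introns kept the spacing of 3069 bp that the coding exons have, and the exon before them measured 81 bp in both genes. Of the 14 coding transcripts of the 3 genes, 4 (28.6%) had an intron past the CDS, beside 8.17% of all coding transcripts in the catalogue. Transcripts 1 and 3 of Mst35Ba share their intron past the CDS, and the joining transcript has 3 such introns, so these shares describe the models and no test was made. Among the 2984 coding transcripts with such an intron, 15.9% had it within 30 nt of the CDS, and the median distance was 162 nt. The shares at or below 6, 21 and 27 nt were 4.16%, 11.0% and 14.7%.

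**Figure D4:**
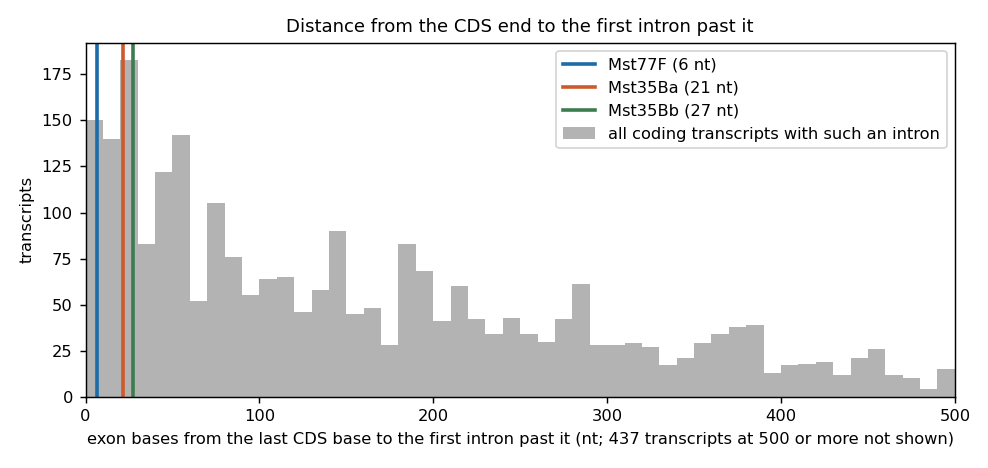
Number of transcripts (vertical axis, grey bars of 10 nt) by the exon bases between the last CDS base and the first intron past it in nt, for all coding transcripts with such an intron, with lines at the values of Mst77F (6 nt), Mst35Ba (21 nt) and Mst35Bb (27 nt, in the joining transcript). The 3 lines stand below the median of 162 nt and among the tallest grey bars. Not drawn are 437 transcripts at 500 nt or more.

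Of the 15 transcripts, 12 were spliced, 3 were unspliced and 14 had a CDS. The longest CDS of a gene was present in 11 of 15 (73.3%). The 4 without it were Mst77F transcripts 2, 7 and 9 and Mst35Ba transcript 9. Of these, the unspliced Mst77F transcript 7 and Mst35Ba transcript 9 each kept the CDS intron of their gene. Transcript lengths ran between 402 and 1885 nt with a median of 1010 nt, against a catalogue median of 1922 nt. Unspliced models made up 13.8% of the whole catalogue.

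Other genes for sperm nuclear proteins and spermatid chromatin proteins were examined as a list of 19. Transcripts on a settled strand were found for 10 of them, 43 in all when any exon overlap was counted. The share of all annotated genes with such transcripts is not given here, so 10 of 19 is not read as few or many. The tHMG1 and tHMG2 genes, which encode HMG-box proteins of spermatids, form another tandem pair, 571 bp apart. They too were joined by 1 transcript, which began at the tHMG1 start and spliced through an intron of 968 bp into tHMG2. Its CDS of 369 bp lay in tHMG2 and shared the stop of the 402 bp CDS of that gene, and no CDS was listed for it in tHMG1, whose own transcript had a CDS of 381 bp. In the Mst35B joining transcript it was instead the upstream gene whose CDS was listed, and its exons held the CDS of both genes whole. The tHMG joining transcript held 466 exon bp of tHMG1, and its first exon ended before the last base of the tHMG1 CDS, at 22492307. An intron past the gene's own CDS was found in 2 of the listed genes. In CG31010 it was 60 bp long and began 8 nt past the CDS, and in CG30056 it was 72 bp long and began 224 nt past it.

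Among the rest of that list Mst33A had 8 transcripts, CG30056 8, CG31010 6, Tpl94D 5, CG34269 5, CG42355 4, CG30356 2 and CG14835 1. These counts take any exon overlap on the gene's strand. With at least 50% of exon bases required in the span, they were 8, 2, 6, 3, 3, 3, 1 and 1 in that order. Mst33A, which encodes another small nuclear protein of sperm, had 6 spliced transcripts of its 8 and no intron past its CDS. Tpl94D encodes a transition protein that is present between histones and protamines. For Prtl99C, another protamine-like gene, 5 overlapping transcripts lay mainly inside the span on the plus strand and 2 on the minus strand, so its strand was not settled. The Y chromosome carries copies derived from Mst77F. The 6 Mst77Y entries of the gene table and CG46192, also on the Y, had 0 catalogue transcripts, as did ddbt. Mst77Y-16Psi is listed at 528 to 1635, far from the other Mst77Y entries. Whether that position belongs to the main Y sequence was not checked, so its 0 may carry no information. Assignment of reads between Mst77F and its Y copies was likewise not tested.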

How the data were processed

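Per the labels' protocols, RNA of 150 pairs of testes per sample was made into Iso-Seq libraries. The authors deposited 1 annotation of transcript, exon and CDS positions for all 4 samples. The name of the deposited file records merging by TAMA, correction, filtering (also by tappAS) and CDS prediction. The submitters' processing notes name the builds BDGP6 and dm6; no aligner, setting or tool version is named in them. Merging and filtering decide which models are listed: numbers run to 9 at the Mst77F locus, where 7 are listed, and to 15 at the Mst35B locus, where 8 are.

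Gene spans came from the RefSeq gene table (Release 6). Strand was taken where at least 80% of the transcripts with at least 50% of their exon bases in the span agreed. Python 3.11.15 scripts measured positions and lengths, and were tested on simulated transcripts. Exact binomial (Clopper-Pearson) intervals over transcripts or loci, which are not replicates, served only to judge whether a share moved under another setting. The genes, lists and measures were chosen with earlier results of these data known. No sequence was printed, since no sequence file was used here.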

Additional observations from a re-analysis of the deposited data

How the results depend on the processing

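Of 27 alternatives to the settings of 12 results, 22 left a count within 1.5 times of its value or a share within the 95% binomial interval of its value. The other 5 were the host overlap and 4 shares of loci, whose intervals are narrow because they run over all loci. Intervals for shares of the members were wide, so a share that stayed within them says little. They ran from 44.9 to 92.2% for the longest CDS and from 8.39 to 58.1% for introns past the CDS. The members numbered 11 when 50% of their exon bases had to lie in a span, and 15 on either strand, with spans extended by 200 bp or by overlap of whole transcripts. Starts within 20 bp of an annotated end numbered 9 and within 200 bp 11, against 10 within 100 bp. The share of loci with no more transcripts than the Mst77F locus was 79.8% among spliced loci and 80.7% among loci with a CDS. For the Mst35B locus these shares were 83.5% and 84.2%. With the span of Mst77F extended by 200 bp, 1 opposite-strand transcript in place of 12 held it inside an intron, since the exon of Pka-R1 lies 67 bp away; this alternative was added after the data were seen. Also added then were a joining rule of 50 bp, spliced transcripts alone for the CDS (91.7%) and introns past the CDS by distinct intron chain (33.3%). The last share is 3 of 9, where the unspliced coding models of a locus were counted as a chain of their own. No paired analysis was possible because the catalogue holds no value per sample. Read support, levels and replicate spread of each model are unknown.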

Other observations

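Transcripts that began inside or upstream of neighbouring genes also occurred around Mst77F. Transcripts 34 and 39 of the host locus began at 20814928 and 20814945 on 3L, upstream of the annotated start of Pka-R1. Both starts lay inside the span of CG3618 (20813353 to 20816075), a gene with a catalogue transcript on the minus strand. Transcripts 60, 61 and 62 began at 20816444 and 20816455. Of the 12 host transcripts, 9 had a predicted CDS of 1134 bp and 2 of 1131 bp, and the transcript that joins HIPP1 to Pka-R1 had 2712 bp.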
